A study of Mus musculus with 24 samples.

Results

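The genes described here encode the interleukin-17 and interleukin-22 cytokines, the related cytokine interleukin-21, and receptors of this family. They were chosen by name and comprise 4 cytokine genes (Il17a, Il17f, Il21 and Il22) and 3 receptor genes (Il17ra, Il17re and Il22ra2), together 7 of the 547 genes measured. Transcripts were counted in the terminal ileum, where the small intestine ends, in 24 mice of the C57BL/6 strain aged 7 weeks, using a NanoString nCounter panel of mouse immunology genes, in which labelled probe pairs bind RNA and are counted directly. The 7 Control mice (4 male, 3 female) drank non-acidified water and had no antibiotic. The 7 PAT1 mice (pulsed antibiotic treatment, 4 male, 3 female) received 1 course of the macrolide tylosin from the treated dam while nursing, and the 10 PAT3 mice (4 male, 6 female) received that course and 2 further courses after weaning. All mice were of 1 strain and 1 age. Litters were assigned whole and the offspring were housed by sex and group, so treatment cannot be told apart from litter, nor sex within a group from cage. The comparison asks whether a single nursing-period course leaves a mark on ileal gene expression, and whether repeated courses leave a different one.

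The 4 cytokines are released mainly by lymphocytes. IL-17A and IL-17F come from Th17 cells, gamma-delta T cells and group 3 innate lymphoid cells, and IL-22 from group 3 innate lymphoid cells and T helper cells. In the ileum Th17 cells depend on gut bacteria. IL-17 and IL-22 act on the epithelium, where they raise antimicrobial proteins, neutrophil-attracting chemokines and the transport of antibody into the lumen. IL-21, made by follicular helper T cells and Th17 cells, acts on B cells and on T cells. Il17ra encodes the receptor chain shared by IL-17 cytokines, Il17re the chain that joins it to bind the epithelial cytokine IL-17C, and Il22ra2 a secreted receptor (IL-22 binding protein) that captures IL-22 and keeps it from its receptor on cells.

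Il17a and Il17f are neighbours on chromosome 1, with 0 other RefSeq genes between them, and both were lower in PAT3 mice. Their start regions are shown because of that shared position and direction. Each runs from 250 bases before to 50 bases after a transcript start in RefSeq (build GRCm38.p6), written 5′ to 3′ along the gene, with capitals marking AGGTCA or its reverse complement, a core element bound by nuclear receptors of the ROR type. The Il17a region is chr1:20730655-20730954 on the + strand and the Il17f region chr1:20784221-20784520 on the - strand. The annotated Il17f gene begins farther upstream than the transcript start used here.
Il17a: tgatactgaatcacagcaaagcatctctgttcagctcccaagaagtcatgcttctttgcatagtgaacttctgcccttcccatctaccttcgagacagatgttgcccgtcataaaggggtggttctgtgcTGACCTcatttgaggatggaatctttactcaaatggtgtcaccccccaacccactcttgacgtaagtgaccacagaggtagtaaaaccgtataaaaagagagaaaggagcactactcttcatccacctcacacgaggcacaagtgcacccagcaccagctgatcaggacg
Il17f: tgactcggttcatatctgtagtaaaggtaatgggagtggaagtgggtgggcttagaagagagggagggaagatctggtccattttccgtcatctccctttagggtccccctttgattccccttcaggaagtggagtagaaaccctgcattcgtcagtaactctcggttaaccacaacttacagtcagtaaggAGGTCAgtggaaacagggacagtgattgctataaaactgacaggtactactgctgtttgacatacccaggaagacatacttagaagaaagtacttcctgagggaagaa

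The AGGTCA element began 120 bases before the start in Il17a, on the opposite strand, and 58 bases before it in Il17f, on the strand of the gene. The same letters occurred, on either strand, in 16.3% of the 32851 promoter regions of this length. The motif TGANTCA, the form bound by AP-1 factors, was found in Il17a, 244 bases before the start, and in 7.81% of all regions, and TTCNNNGAA, the form bound by STAT factors, in neither gene and in 8.30% of all regions. The regions of Il21, Il22 and Il17re held none of these 3 motifs, and no entry was used for Il17ra and Il22ra2. As for Il17f, the annotated Il22 and Il17re genes begin farther upstream than the transcript starts used. The Il22 region lies wholly within its annotated gene, so the bases before that gene were not searched. A match describes the letters of the window and was not tested as a binding site.

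Il17a, the first cytokine of the family, fell in both antibiotic groups. In Control mice the log2 normalized count ran from 3.78 to 4.67 with a median of 4.11, in PAT1 mice from 2.17 to 4.48 with a median of 3.0, and in PAT3 mice from 2.24 to 3.36 with a median of 2.86. All 10 PAT3 mice thus lay below all 7 Control mice, whereas in PAT1 the male mice replicates 1 and 2, at 4.48 and 3.9, lay within the Control range and the other 5 below it. The fall was 2.07-fold in PAT1 (log2 fold change -1.05, SE 0.27, limma with Benjamini-Hochberg adjusted p = 0.00567, with 6 of 7 mice under the Control mean). In PAT3 it was 2.43-fold (log2 fold change -1.28, SE 0.25, limma adjusted p = 0.000283, lower in 10 of 10 mice). Of all 547 genes, 7.31% were lower without overlap in PAT3. Both falls passed the threshold whichever of the 24 mice was left out.

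Il17f, the close relative that also pairs with IL-17A, fell in PAT3. Its log2 normalized count ran from 3.23 to 4.10 in Control (median 3.75), from 1.58 to 3.86 in PAT1 (median 2.84) and from -0.32 to 4.24 in PAT3 (median 2.26). The antibiotic groups spread far more widely than Control: 3 PAT1 mice and 2 PAT3 mice lay within or above the Control range. The mean was 2.73-fold lower in PAT3 (log2 fold change -1.45, SE 0.47, limma adjusted p = 0.0196, lower in 8 of 10 mice). In PAT1 the log2 difference was -0.99 with a 95% interval from -2.03 to 0.05, which did not pass (limma adjusted p = 0.194). The 3 PAT1 mice within the Control range had the lowest total counts of that group. The PAT1 fall passed in 2 of 15 other settings and in 0 of 24 fits without 1 mouse. These settings were females alone and the log2 size factor, a measure of depth, as a covariate (-1.51, limma adjusted p = 0.0216). The PAT3 fall was also not called by the methods' test, the analysis of variance with Tukey contrasts named in the study's methods (adjusted p = 0.0849).

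Il22, the cytokine that acts on epithelial cells, was lower in PAT3 and rested on few counts, 1 to 24 a mouse. Values ran from 1.83 to 4.08 in Control (median 2.52), from -0.16 to 2.76 in PAT1 (median 1.53) and from -0.32 to 2.51 in PAT3 (median 1.69). Every PAT1 and PAT3 mouse lay below the Control mean of 2.85, with an overlap at the low end of the Control range. Il22 fell 2.95-fold in PAT3 (log2 fold change -1.56, SE 0.44, limma adjusted p = 0.00802, lower in 10 of 10 mice). In PAT1 the log2 difference of -1.30 (SE 0.48, lower in 7 of 7 mice) lay just outside the threshold (limma adjusted p = 0.0578), and it passed when any 1 of 6 mice was left out, among them PAT1 replicate 1, the mouse with the fewest counts (adjusted p = 0.0441 without it).

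Il21, a cytokine that helps B cells, passed in neither group. It ran from 2.75 to 4.30 in Control (median 3.40), from 2.27 to 4.31 in PAT1 (median 3.96) and from 2.0 to 4.78 in PAT3 (median 3.31), so the groups overlapped over nearly their whole range. The log2 difference was 0.03 in PAT1 (95% interval -0.74 to 0.79, limma adjusted p = 0.988) and -0.25 in PAT3 (95% interval -0.95 to 0.46, limma adjusted p = 0.591). These intervals leave room for a change of moderate size in either direction.

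**Figure D1:**
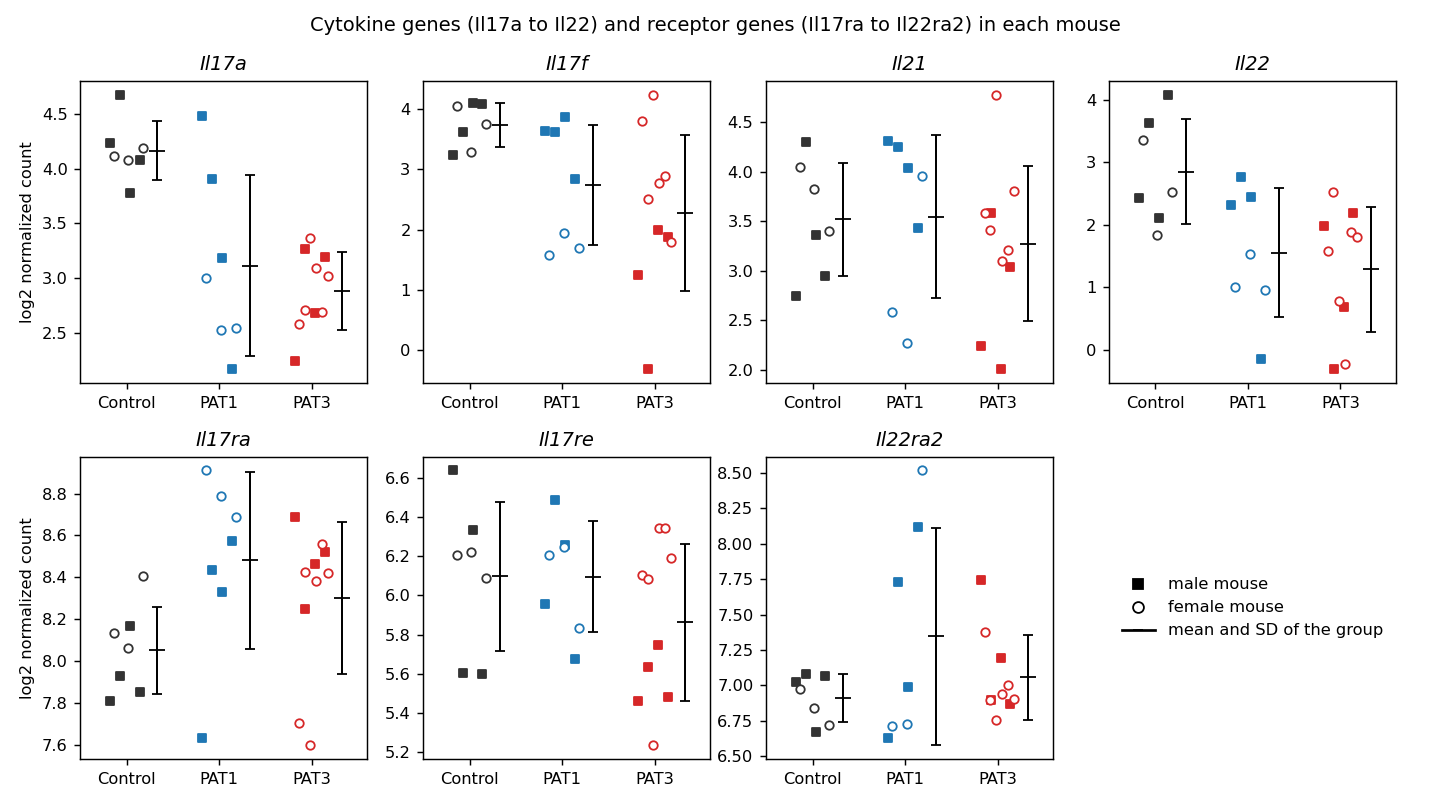
Log2 normalized count (vertical axis, a separate scale in each panel) of the 4 cytokine genes and the 3 receptor genes in each mouse of the 3 groups. Squares are males, open circles females, and the bars to the right of each group give its mean and SD. The 10 PAT3 mice sit at or below 3.36 for Il17a, under the lowest Control mouse at 3.78.

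The cytokine transcripts were scarce, and the depth limits what can be read from single mice. Total counts per mouse ran from 171671 (PAT1 replicate 1) to 782392 (PAT1 replicate 7). The median Control mouse held 19 counts of Il17a, 15 of Il17f, 12 of Il21 and 6 of Il22, while the median PAT3 mouse held 7.5, 6, 11 and 3. Counts of Il22 went down to 1 in both antibiotic groups, and values near or below 0 on the log2 scale stand for a single count and have no firm order. Summed over the mice of a group and divided by the summed size factors, Il22 stood at 8.89 normalized counts in Control (95% Poisson interval 6.94 to 11.2), 2.98 in PAT1 (1.79 to 4.65) and 2.97 in PAT3 (2.03 to 4.19). The same sum for Il17a was 18.2 (15.3 to 21.4), 8.30 (6.22 to 10.9) and 7.42 (5.88 to 9.23). These intervals cover counting error only, and neither cytokine's Control interval met those of the antibiotic groups. They leave out the spread between mice, so this is no test of the groups. The variance between mice was 0.46 to 2.90 times the counting variance for Il17a over the 3 groups. For Il22 it was 1.06 to 3.45 times. How much of such low counts was background of the assay was not determined, since no negative control probes were analysed here.

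The receptor genes showed no fall. Il17ra, the shared IL-17 receptor chain, ran from 7.81 to 8.41 in Control (median 8.06), from 7.63 to 8.91 in PAT1 (median 8.57) and from 7.60 to 8.69 in PAT3 (median 8.42). Most antibiotic-exposed mice lay at or above the top of the Control range, and a few lay below its bottom: PAT1 replicate 1 at 7.63 and PAT3 replicates 5 and 7 at 7.70 and 7.60. The log2 difference was 0.43 in PAT1 (SE 0.19, limma unadjusted p = 0.0307, adjusted p = 0.126, higher in 6 of 7 mice) and 0.25 in PAT3 (SE 0.17, limma adjusted p = 0.282, higher in 8 of 10 mice). Without PAT1 replicate 1 the PAT1 difference was 0.57 and passed (adjusted p = 0.0153).

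Il17re, the IL-17C receptor chain, ran from 5.60 to 6.64 in Control (median 6.21), from 5.68 to 6.49 in PAT1 (median 6.21) and from 5.24 to 6.35 in PAT3 (median 5.91). The PAT1 range lay inside that of Control. The log2 difference had a 95% interval from -0.41 to 0.40 in PAT1 (limma adjusted p = 0.992) and was -0.24 in PAT3 with an interval from -0.61 to 0.14 (limma adjusted p = 0.339). Il22ra2, the IL-22 binding protein, ran from 6.67 to 7.08 in Control (median 6.98), from 6.63 to 8.51 in PAT1 (median 6.99) and from 6.75 to 7.74 in PAT3 (median 6.92). The medians lay close together, while PAT1 replicates 2, 4 and 7, at 7.73, 8.12 and 8.51, stood above every Control mouse. The log2 difference was 0.43 in PAT1 (SE 0.24, limma adjusted p = 0.236) and 0.15 in PAT3 (SE 0.22, limma adjusted p = 0.619).

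As counts, 1 of the 7 genes passed in PAT1 (Il17a), against 18.5% of all 547 genes, and 3 of 7 in PAT3 (Il17a, Il17f and Il22), against 31.8%. These shares do not set the 7 genes apart from the panel. By role, among the cytokines 1 of 4 fell in PAT1 and 3 of 4 in PAT3, where 11.2% and 17.9% of all genes fell, and 0 of the 3 receptors passed in either direction, where 7.31% and 13.9% of all genes rose. The median log2 fold change of the cytokines was -1.02 in PAT1 and -1.36 in PAT3, that of the receptors 0.43 and 0.15, and that of all genes 0.01 and 0.03. PAT1 and PAT3 were compared with the same Control mice. The scaling matters for the receptors: the median log2 value over all genes of a mouse was lower by -0.14 in PAT1 and by -0.19 in PAT3 than in Control, and after re-centring each mouse on that median Il17ra and Il22ra2 passed as higher in PAT1 (log2 fold changes 0.57 and 0.58, limma adjusted p = 0.0483 and 0.0470), while Il17a, Il17f and Il22 kept their falls in PAT3 (adjusted p = 0.00217, 0.0369 and 0.0179).

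**Figure D2:**
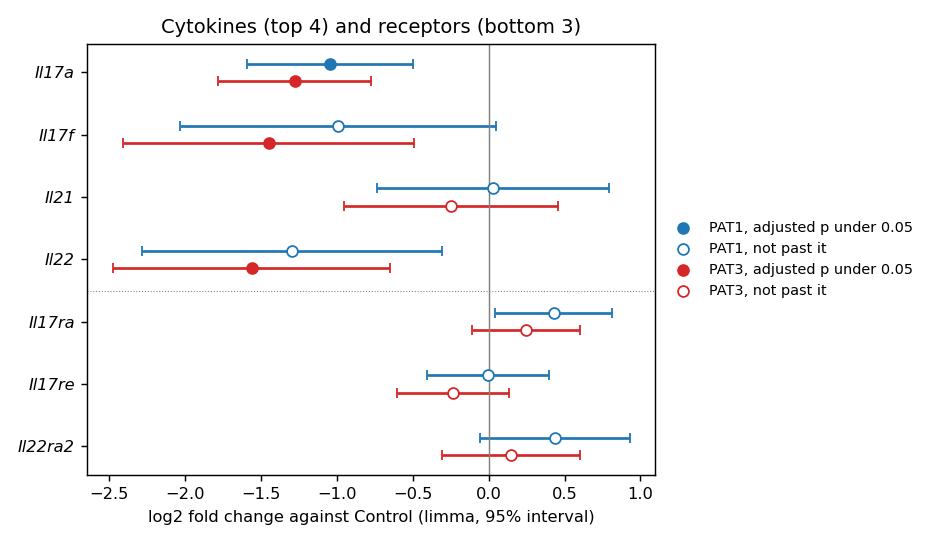
Log2 fold change against Control (horizontal axis) of each gene in PAT1 (blue) and PAT3 (red), with 95% intervals from limma; filled points passed an adjusted p of 0.05 and open points did not. In PAT3 the intervals of Il17a, Il17f and Il22 lie wholly below 0, and those of Il21 and the 3 receptors cross it.

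Ligand and receptor were also compared within each mouse, as the log2 value of the cytokine minus that of its receptor, a difference that no scaling of the whole sample can change. Il17a minus Il17ra averaged -3.89 ± 0.39 in Control (SD, n = 7), -5.37 ± 1.19 in PAT1 (SD, n = 7) and -5.42 ± 0.59 in PAT3 (SD, n = 10). It was thus lower by -1.48 in PAT1 (two-sided exact permutation test, adjusted p = 0.0161 over 6 comparisons, lower in 6 of 7 mice) and by -1.53 in PAT3 (exact permutation adjusted p = 0.000926, lower in 10 of 10). For Il17f minus Il17ra the shifts were -1.42 in PAT1 (exact permutation adjusted p = 0.0251, lower in 6 of 7) and -1.70 in PAT3 (adjusted p = 0.0161, lower in 8 of 10). For Il22 minus Il22ra2, the cytokine against its soluble trap, they were -1.73 in PAT1 (exact permutation adjusted p = 0.0161, lower in 7 of 7) and -1.71 in PAT3 (adjusted p = 0.00494, lower in 10 of 10). The PAT1 median lay closer to that of Control, at -5.20 against -4.20. The lowest PAT1 value, -8.27, was that of replicate 4, where Il22ra2 was high (8.12). All 6 shifts stayed past the threshold whichever mouse was left out. The levels of these differences rest on 2 different probes each and only their change between groups is read here.

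**Figure D3:**
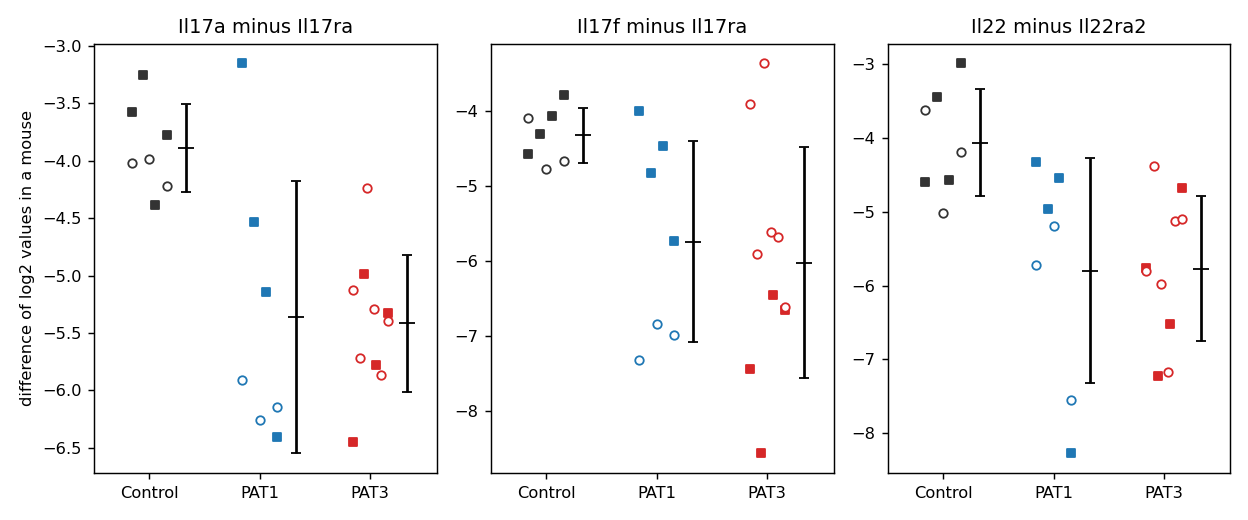
Difference of log2 values between a cytokine and its receptor in each mouse (vertical axis, a separate scale in each panel), by group, with squares for males, open circles for females, and bars for the mean and SD. The means of both antibiotic groups lie below the Control mean in all 3 panels, by -1.42 to -1.73, and the groups overlap in each.

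None of the 7 genes passed between PAT3 and PAT1 (limma unadjusted p from 0.206 to 0.555, adjusted p from 0.422 to 0.739), where 4.2% of all genes passed. The estimates were below 0 for all 7, from -0.46 for Il17f to -0.18 for Il17ra, and the 95% intervals of Il17a (-0.74 to 0.27) and Il22 (-1.18 to 0.65) leave room for a further fall after the added courses as well as for none.

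Il17f was the 1 gene of the 547 that passed in the test of whether the response to treatment differed between the sexes (limma F-test over the treatment-by-sex terms, p = 7.87e-05, adjusted p = 0.0431, 0.183% of all genes; 18.3% had an unadjusted p under 0.05). In Control, males and females lay close together, at 3.76 ± 0.41 (SD, n = 4) and 3.69 ± 0.38 (SD, n = 3). In PAT1 the 4 males ran from 2.84 to 3.86 and the 3 females from 1.58 to 1.94. In PAT3 the order was turned, with the 4 males between -0.32 and 2.0 and the 6 females between 1.80 and 4.24. The female-minus-male difference was larger in PAT3 than in PAT1 by 3.55 on the log2 scale (SE 0.65). Within one sex, limma called the PAT1 fall in females (log2 fold change -1.95, adjusted p = 0.0497) and not in males (-0.27, adjusted p = 0.717), and the PAT3 fall in males (-2.56, adjusted p = 0.00128) and not in females (-0.69, adjusted p = 0.368). Over all 547 genes, these fits called 23 in PAT1 and 57 in PAT3 for females, and 57 and 122 for males.

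This pattern rested on 1 to 24 counts a mouse, and it passed in 9 of the 24 fits without 1 mouse (adjusted p from 0.00913 to 0.122) and in 4 of 10 other settings. The number of genes called over the panel was 47 with array weights, 2 with median re-centring, and 0 to 4 without 1 mouse. With the log2 size factor, a measure of depth, as a covariate its adjusted p was 0.922. In PAT1 sex went with depth. Male replicates 1 to 3 had 171671, 389743 and 294135 total counts and male replicate 4 had 631905, while the females had 543394 to 782392. Since mice of 1 sex and group shared housing, sex and cage cannot be told apart here. For Il21 the means were turned in the same way, with PAT1 males at 4.01 and females at 2.94 on average and PAT3 males at 2.72 and females at 3.64, but its interaction did not pass (limma unadjusted p = 0.00945, adjusted p = 0.168). Among males alone, Il17f and Il21 were lower in PAT3 than in PAT1 (log2 fold changes -2.29 and -1.29, limma adjusted p = 0.00662 and 0.0323), where 23.6% of all genes were called. For Il17a, Il22 and the receptors the interaction had adjusted p from 0.228 to 0.974. None of the 7 genes differed between females and males over all groups (limma unadjusted p of at least 0.127, adjusted p from 0.638 to 0.891, against 0.366% of all genes called).

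**Figure D4:**
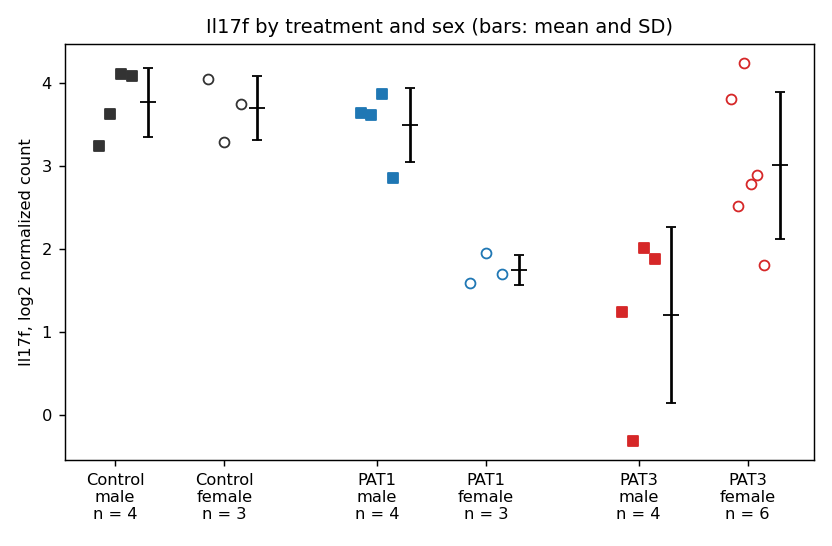
Log2 normalized count of Il17f (vertical axis) by group and sex, each point a mouse, with bars for the mean and SD. PAT1 females lie at 1.58 to 1.94 and PAT1 males at 2.84 to 3.86, while PAT3 females at 1.80 to 4.24 lie mostly above PAT3 males at -0.32 to 2.0. The lowest total counts in PAT1 were those of male replicates 1 to 3.

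Markers of T cells in general were lower with treatment. Of 12 T cell markers in the panel, 3 fell in PAT1 and 9 in PAT3, among them Cd8a (log2 fold change -1.84), Cd6 (-1.39) and Cd3e (-1.38). Of all 547 genes, 11.2% fell in PAT1 and 17.9% in PAT3. The mean of the 12 ran from 6.03 to 6.29 in Control, 5.18 to 6.19 in PAT1 and 4.57 to 5.69 in PAT3, with none listed at 0. The ranges of that mean in Control and PAT3 did not meet, so a fit with it cannot separate it from treatment there. With that mean as a covariate in limma, 0 of the 7 genes passed in PAT1 or PAT3, and the calls lost in PAT3 decide nothing. Il17a then stood at -0.83 in PAT1 (adjusted p = 0.0576) and -0.82 in PAT3 (adjusted p = 0.309), and Il22 at -1.13 (adjusted p = 0.177) and -1.20 (adjusted p = 0.455). Il17f stood at -0.63 and -0.67 (adjusted p = 0.492 and 0.728). Calls over all genes went from 174 to 15 in PAT3 and from 101 to 112 in PAT1. In whole tissue, fewer cells of a type and less RNA per cell cannot be told apart.

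For the narrower cell types that release IL-17 and IL-22, few markers passed. Over all genes 11.2% fell and 7.31% rose in PAT1, and 17.9% fell and 13.9% rose in PAT3. Of 4 Th17 markers, 0 passed in PAT1 and 1 in PAT3 (Cd4, log2 fold change -0.39), with medians of -0.0028 and -0.37. The chemokine receptor gene Ccr6, named after its values were seen, stood at -1.05 in PAT3 without passing (limma adjusted p = 0.0746, under the Control mean in 10 of 10 mice). The mean of the 4 ran from 6.29 to 6.90 in Control, 5.91 to 7.25 in PAT1 and 5.73 to 6.59 in PAT3. Of 8 markers of group 3 innate lymphoid cells, 1 rose in each comparison (Lta in PAT1, Kit in PAT3) and 0 fell. Of 6 follicular helper T cell markers, 0 passed in PAT1 and 3 fell in PAT3. The 6 markers of ileal epithelium were abundant in every mouse, with means from 13.03 to 14.29 and none at 0, as the tissue label requires.

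The wide spread of Il22ra2 in PAT1 went with markers of B cells, and also with those of follicular helper T cells and dendritic cells. The mean of 9 B cell markers was 6.95, 6.63 and 8.24 in PAT1 replicates 2, 4 and 7, the mice with high Il22ra2, and 3.94 to 4.88 in the other 4. In the same order, the follicular helper mean was 5.11, 4.85 and 5.77, against 4.07 to 4.52. The dendritic cell mean was 7.26, 7.14 and 7.63, against 6.59 to 7.13. Cxcr5 belongs to both the B cell and the follicular helper list. Which cell type the spread followed was not tested. In Control the mean ran from 4.14 to 5.98 and in PAT3 from 3.42 to 5.12, none at 0, and the highest PAT3 mouse for Il22ra2 (replicate 1, 7.74) had a B cell mean of 4.17. With the B cell mean as a covariate the PAT1 difference of Il22ra2 went from 0.43 to 0.14 (limma adjusted p = 0.631). Of the 9 B cell markers, 0 passed in PAT1 and 1 fell in PAT3 (Cd79b, log2 fold change -1.26, limma adjusted p = 0.0321). Of all genes, 18.5% passed in PAT1 and 17.9% fell in PAT3.

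Il17ra went with the mean of 5 markers of mature enterocytes, the absorptive cells of the villus. These markers did not move as one: 2 rose and 1 fell in each antibiotic group, with Ccl25 higher (1.13 in PAT1 and 0.81 in PAT3) and Ceacam1 lower (-1.26 and -1.05), and none was listed at 0. Of all genes, 7.31% rose and 11.2% fell in PAT1, and 13.9% rose and 17.9% fell in PAT3. The 3 antibiotic-exposed mice with low Il17ra had the lowest enterocyte means in their groups, 12.18 in PAT1 replicate 1 and 11.80 and 12.59 in PAT3 replicates 5 and 7, where the means otherwise reached 13.65 in PAT1 and 13.57 in PAT3. With that mean as a covariate the difference of Il17ra was 0.22 in PAT1 (limma adjusted p = 0.228) and 0.08 in PAT3 (adjusted p = 0.614), while Il17a, Il17f and Il22 still passed in PAT3 (adjusted p = 0.000684, 0.0464 and 0.0197). The 3 mice with low Il17ra also had the lowest total counts in their groups, 171671, 415314 and 265500. With the log2 size factor, a measure of depth, as a covariate Il17ra stood at 0.65 in PAT1 (limma adjusted p = 0.00317). In PAT3 it then stood at 0.30 (adjusted p = 0.0752). The part of these cell types and of depth in the results was not tested further.

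**Figure D5:**
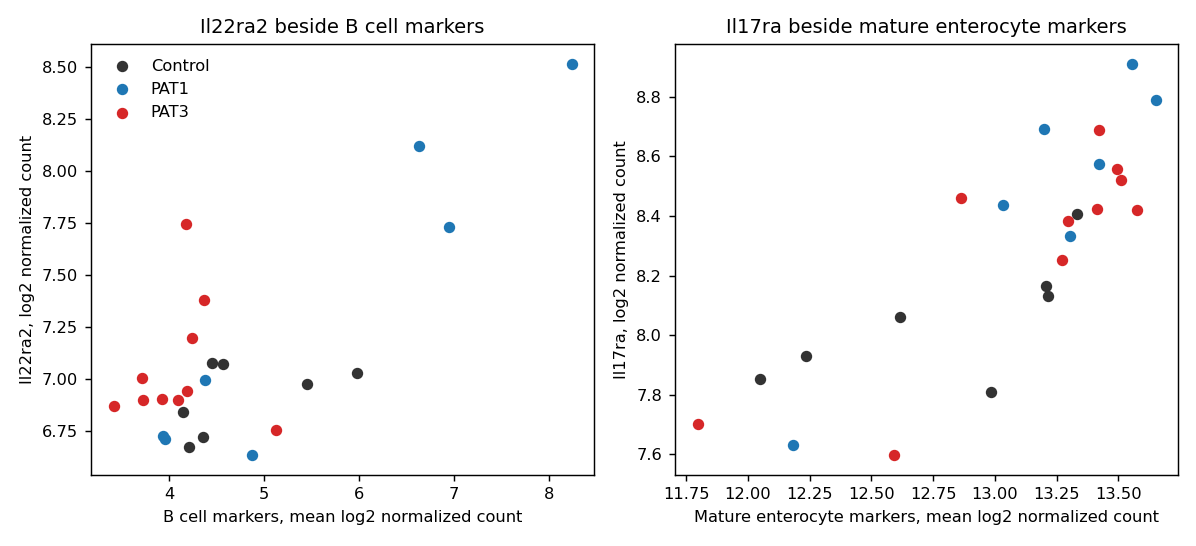
Left, Il22ra2 against the mean of 9 B cell markers, and right, Il17ra against the mean of 5 mature enterocyte markers, each point a mouse, all values as log2 normalized counts. The PAT1 mice with B cell means of 6.63 to 8.24 are those with Il22ra2 from 7.73 to 8.51, and the mice with low enterocyte means have low Il17ra.

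Among genes upstream of these cytokines, on the IL-23 axis and in Th17 regulation, 2 of 18 fell in PAT1 and 4 fell and 1 rose in PAT3, with median log2 fold changes of -0.16 and -0.13. Over all genes 11.2% fell in PAT1 and 31.8% were called in PAT3, so these shares are close to those of the panel and say nothing about the list. In PAT3 the transcription factors Batf and Irf4, which are needed for Th17 differentiation, fell by 0.88 and 0.93 on the log2 scale (limma adjusted p = 0.00154 and 0.00275), and Il1b, a cytokine that promotes Th17 cells, by 0.78 (adjusted p = 0.00467). Il6ra, the receptor for the Th17-promoting cytokine IL-6, rose by 0.64 (adjusted p = 0.00507).

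Of 19 genes of receptor signalling, 3 fell and 3 rose in PAT1, and 4 fell and 6 rose in PAT3, with medians of 0.05 and 0.23, where 18.5% and 31.8% of all genes were called. Socs3, the feedback inhibitor of STAT3 signalling, fell by 1.31 in PAT1 and 1.54 in PAT3 on the log2 scale, and Nfkbiz, the co-activator of IL-17 responses, by 1.24 and 1.0, each lower than the Control mean in all 17 antibiotic-exposed mice. Il17rb, the receptor chain for IL-25 and a further member of the receptor family, rose by 0.53 in PAT1 and 0.74 in PAT3 (adjusted p = 0.00501 and 3.62e-05), higher in 7 of 7 and 10 of 10 mice. Of 20 target genes of IL-17 and IL-22, 4 fell and 1 rose in PAT1 and 6 fell and 0 rose in PAT3. The medians were -0.33 and -0.34, and the gene that rose in PAT1 was Cfb (log2 fold change 0.57, limma adjusted p = 0.0437). Over all genes 11.2% fell and 7.31% rose in PAT1, and 17.9% fell and 13.9% rose in PAT3. Whether the shares of these lists differ from those of the panel was not tested. Socs3 and Nfkbiz belong to both lists. Nos2, which makes nitric oxide, fell by 3.05 in PAT3 and S100a9, a subunit of the antimicrobial protein calprotectin, by 0.96. Most of these genes also answer to other cytokines, and what the shares of the 3 lists owe to IL-17 or IL-22 was not tested.

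The genes whose pattern over the 24 mice was most like that of a member were ranked by Spearman's rho among 423 genes with a median of at least 20 counts. For Il17a these were Ccl8 (0.80), Tnfrsf17 (0.80) and Bst2 (0.73), and for Il17f Cd28 (0.73), Bst2 (0.69) and Ccr9 (0.68). Those of Il22 were Ccl22 (0.77), Ccr10 (0.67) and Runx3 (0.64), and those of Il21 were Ikzf1 (0.64), Cd48 (0.64) and Bst2 (0.60). Among the receptors, Il17ra was most like Syk (0.89), Cd164 (0.84) and Stat6 (0.83), Il22ra2 most like Clu (0.76), Cxcl13 (0.67) and Ets1 (0.63), and Il17re most like C2 (0.59), Cxcr3 (0.58) and Crlf2 (0.56). These values describe 24 points that share treatment groups and scaling, and group differences enter them.

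Within a group the 3 falling cytokines were not shown to vary together. Of 9 correlations between Il17a, Il17f and Il22 among mice of 1 group, 0 passed after adjustment and 1 had an unadjusted p under 0.05. The highest was that of Il17a and Il22 in PAT1 (Pearson r = 0.80, exact permutation p = 0.0306, adjusted p = 0.275; Spearman rho = 0.79, p = 0.0480, adjusted p = 0.432; n = 7), and r was 0.81 without the 2 mice farthest from the median of Il17a. In PAT3 Il17a and Il17f gave r = -0.01 and rho = 0.03 (permutation p = 0.978 and 0.947, n = 10), and r was -0.72 without the 2 mice farthest from the median of Il17a.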

How the data were processed

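Total RNA of the terminal ileum was hybridized to the nCounter GX mouse immunology panel. Per the labels RNA came from TRIzol with RNeasy cleanup, although a Qiagen miRNA kit is given in the study's methods. The authors normalized counts with DESeq2 and deposited log2 values. Raising 2 to these values gave whole multiples of 1 step per sample for 100% of 13109 values (tolerance 0.01 counts), from which counts and size factors were recovered; 19 values in 9 genes were listed at 0, none of them among the genes described. All 276 pairs of samples differed by more than sampling noise (chi-square per degree of freedom at least 3.98). Whether background was subtracted was not stated in the sources used here. Genes carry the names in the table. Group, sex and age came from the labels, which place 1 mouse more in PAT3 and 1 fewer in PAT1 than the study's figure legend.

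The deposited log2 values of all 24 samples were fitted with limma 3.58.1 in R 4.3.3 (lmFit, eBayes), without covariates, pseudocount or filter, with Benjamini-Hochberg adjustment over 547 genes and a threshold of 0.05 for a called gene. Sex was tested in a fit with treatment, and treatment by sex by an F-test in a fit of 6 group means. P-values treat mice as independent and leave out litter and cage. Ligand-minus-receptor differences were compared by two-sided exact permutation tests, and correlations by exact permutation for 7 mice and 100000 permutations for 10. Alternatives comprised the methods' test, voom and quasi-Poisson regression on recovered counts (the last chosen after seeing the data), pseudocounts of 1 and 8, a filter at a median of 20 counts in some group, median re-centring, quantile normalization, array weights, covariates, single sexes and leaving out each mouse. The limma script was tested on simulated data. The genes and the lists were chosen with earlier results of these data known. All 7 genes are named; of each list at most 4 called genes with the smallest adjusted p in PAT3 are named, with those that make up a count of 1. Some genes covered by these choices are not reported here. Promoter regions came from RefSeq (GRCm38.p6), with entries for 5 of the 7 genes; no other reference was used.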

Additional observations from a re-analysis of the deposited data

Results flagged for a closer look

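In the fit reported, the response of Il17f to treatment differed between the sexes (limma F-test over the treatment-by-sex terms, Benjamini-Hochberg adjusted p = 0.0431), which is a difference between groups of mice under the same contrast. That test passed in 9 of the 24 fits without 1 mouse and in 4 of 10 other settings. With the log2 size factor as a covariate its adjusted p was 0.922. Against Control of the same sex, Il17f differed by -1.95 in PAT1 females and -0.27 in PAT1 males, and by -0.69 in PAT3 females and -2.56 in PAT3 males, on the log2 scale. The female-minus-male difference exceeded that of Control by -1.68 in PAT1 (SE 0.70) and by 1.87 in PAT3 (SE 0.65), and neither of these terms passed on its own (limma adjusted p = 0.476 and 0.874). Sex and cage cannot be told apart within a group. The difference between PAT3 and PAT1 in this quantity ran from 1.42 to 3.82 over the other settings and the fits without 1 mouse. No mouse stood apart from its group in any of the 21 sets of values (7 genes in 3 groups) to which a test for outlying samples was applied, where chance would mark about 1 in 20.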

How the results depend on the processing

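Comparisons with Control and between PAT3 and PAT1 were recomputed under 16 other settings (15 for the cytokines), those of sex under 10 or 11, the ligand-minus-receptor shifts under 4 and the correlations under 3. Each of the 24 mice was left out in turn, except for the correlations. No paired analysis was possible because the replicate numbers were given in sample order and link no animal to another. Il17a in PAT1 lost its call in males alone (adjusted p = 0.238) and with the T cell covariate (0.0576), and in PAT3 with the T cell covariate (0.309) only. Il17f in PAT3 lost it by the methods' test, in females alone and with the T cell covariate, and Il22 in PAT3 in males alone (-1.93, adjusted p = 0.0594, a larger fall than over both sexes), in females alone (-1.18) and with the T cell covariate (-1.20). The T cell mean did not overlap between Control and PAT3, so that covariate cannot be told apart from treatment in PAT3. The number of the 7 genes called in PAT1, 1 in the fit reported, was 2 with voom, with pseudocounts of 1 and 8, with quantile normalization and in females alone, 3 with median re-centring, 4 with array weights and with quasi-Poisson regression, 5 with the log2 size factor as a covariate, and 0 in males alone, with the T cell covariate and under the filter on low counts, which removes all 4 cytokines. It ran from 1 to 3 with 1 mouse left out. In PAT3 the number, 3, was 0 under that filter and with the T cell covariate, 1 in females alone, 2 by the methods' test and in males alone, 4 with array weights, which added Il17ra as higher (0.34, adjusted p = 0.0103), and 3 in every fit without 1 mouse. Between PAT3 and PAT1 it was 2 in males alone. For treatment by sex the 1 call became 0 under the filter, with a pseudocount of 8, with quantile normalization and with the size factor, T cell, B cell or enterocyte covariate, and ran from 0 to 1 with 1 mouse left out. Over all 547 genes the calls ran from 23 to 145 in PAT1 (101 in the fit reported), from 15 to 287 in PAT3 (174) and from 0 to 129 between PAT3 and PAT1 (23). Depth limits the cytokines: 1 count more or less moves a mouse with 3 counts of Il22 widely on the log2 scale. The cause of these shifts was not tested.

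Within single sexes the ligand-minus-receptor shifts kept their direction and did not pass. In males Il17a minus Il17ra, Il17f minus Il17ra and Il22 minus Il22ra2 stood at -1.06, -0.57 and -1.62 in PAT1 and at -1.89, -3.10 and -2.14 in PAT3. In females they stood at -2.03, -2.55 and -1.88 in PAT1 and at -1.20, -0.67 and -1.32 in PAT3. Exact tests of these sizes cannot go below p = 0.0286 for males, 0.1 for PAT1 females and 0.0238 for PAT3 females before adjustment.

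Differences that changed sign were not called before or after. In PAT1, Il21 turned to -0.0434 with voom, -0.0431 with quantile normalization, -0.0352 with quasi-Poisson regression, -0.28 with the size factor, -0.21 with array weights, -0.82 in females and -0.16 with the B cell covariate, and ran from -0.10 to 0.24 with 1 mouse left out. Il17re in PAT1 turned to 0.00371 with voom, 0.14 with re-centring, 0.0707 with quantile normalization, 0.0507 in males, 0.0353 with the T cell and 0.0332 with the B cell covariate, and ran from -0.0864 to 0.0864 with 1 mouse left out. In PAT3, the T cell covariate put Il21 at 1.13 and Il17ra at -0.12, and females alone put Il17ra at -0.0194. Between PAT3 and PAT1, Il17a turned to 0.0284 with the size factor, 0.0622 with array weights, 0.22 in females and 0.0131 with the T cell covariate. There Il21 turned to 0.0143 with quantile normalization, 0.71 in females, 0.46 with the T cell and 0.0649 with the B cell covariate, Il17f to 1.26 in females, Il22 to 0.35 with array weights and 0.23 in females, Il17ra to 0.24 in males, and Il22ra2 to 0.23 with the B cell covariate. Female minus male, Il22 turned to 0.39 with array weights, and Il17f ran from -0.0947 to 0.37 with 1 mouse left out. Of the correlations, Il17a with Il17f in PAT3 turned to 0.12 with a pseudocount of 8 and 0.0569 with re-centring, and stood at -0.72 without the 2 mice farthest from the median. Il17f with Il22 in PAT3 turned to -0.0584 with a pseudocount of 8 and -0.20 without the 2 mice farthest from the median. Without such mice, Il17a with Il22 and Il17f with Il22 in Control turned to -0.32 and -0.0712.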
